A study of Mus musculus with 12 samples.

Results

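Normal maturation of the mouse kidney between E14.5 and E17.5 was described from the wild-type (WT; Pkd1+/+) arrays of a study of polycystic kidney disease. The members were all arrays labelled wild-type, 6 of the 12 in the series: replicates 2, 38 and 41 at E17.5, and replicates 34, 57 and 58 at E14.5. The animals were CD-1 mice, an outbred stock, and carried no transgene or treatment. The other 6 arrays were of mutant littermates lacking Pkd1 (Pkd1-/-), 3 at each age, and are used here to measure the spread between arrays and to test where an age change differed between genotypes. Each array held total RNA of 1 pair of whole kidneys, and the 3 pairs of a group are its replicates, so the p-values measure the spread between these pairs.

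At E14.5 the mouse kidney is mostly dividing tissue: a branching ureteric tree, capped by progenitors that turn into epithelium, inside a stroma. By E17.5 the oldest nephrons have podocytes, a proximal tubule that takes back sugars, amino acids and phosphate through carriers on its brush border, a loop of Henle that dilutes urine, and distal segments and collecting ducts that adjust salt, water and acid. New nephrons are still forming under the capsule at that age, so both stages hold immature and maturing cells side by side. RNA of a whole organ cannot tell fewer cells of a type apart from less RNA in each cell.

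Expression is given as log2 intensity of an Illumina bead array probe, on which a probe told apart from the negative controls read at least 5.45 to 5.56 on the 6 WT arrays. A log2 fold change is the E17.5 mean minus the E14.5 mean, and a gene was called where its limma p, adjusted over all features tested, was under 0.05. Of 14882 features tested, 6491 were called (43.6%), 3000 of them higher (20.2%) and 3491 lower at E17.5 (23.5%). The median change of all features was -0.05, and that of the called ones was 0.61 in size. Changes of at least 2-fold numbered 1320 (8.87%), of which 966 were higher and 354 lower. Past a log2 change of 2 the split was 306 higher against 14 lower, and past 4 it was 36 against 1. With this processing the falls were thus more numerous and mostly shallow, and nearly all of the steep changes were rises. With cyclic loess in place of quantile normalization the order of the counts was the reverse, with 3670 called higher and 2698 lower. Past 2-fold, 1093 of 1318 were then higher. Features called higher and detected on no E14.5 array numbered 308, and those called lower and detected on no E17.5 array numbered 201.

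**Figure D1:**
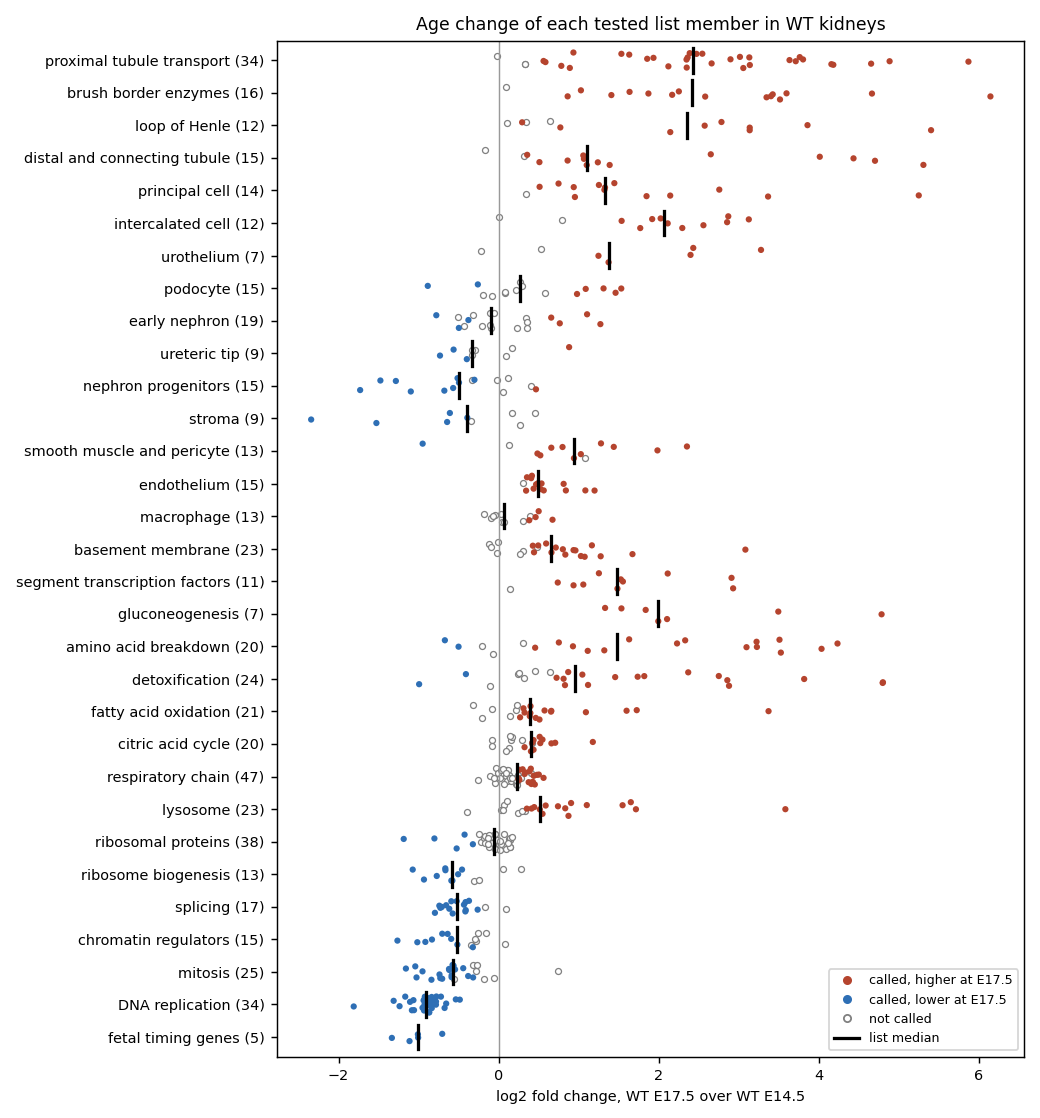
Log2 fold change (x axis, WT E17.5 over WT E14.5) of each tested gene in 31 lists of kidney cell types and pathways, with the number of tested genes in brackets. Red points were called higher, blue points called lower, open points not called, and the bar is the list median: the proximal tubule lists lie around 2.43 and 2.41, and the DNA replication list lies at -0.91 with all of its points blue.

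As a check of the labelled tissue, Cdh16, the kidney cadherin, read 14.37, 14.28 and 14.16 at E17.5 and 13.29, 12.72 and 12.97 at E14.5. Among the 12 named genes with the largest rise, most are carriers, secreted proteins or enzymes of the nephron. Kap, an androgen-responsive proximal tubule protein, read 10.86, 10.38 and 10.94 on E17.5 replicates 2, 38 and 41, and 4.64, 4.54 and 4.57 on E14.5 replicates 34, 57 and 58. All E14.5 arrays lay below detection, so Kap was at least 37.4-fold higher at E17.5 (adjusted p = 4.68e-06, as for the other values here from limma). Slc5a10, a sodium-coupled mannose and fructose carrier, read 10.87, 10.55 and 10.69 at E17.5 against 5.27, 4.59 and 4.65 at E14.5, at least 36.8-fold higher. Aqp2, the vasopressin-regulated water channel of the collecting duct, read 9.93, 9.88 and 10.05 at E17.5 against 4.92, 4.55 and 4.66 at E14.5, at least 21.9-fold higher (adjusted p = 3.77e-09). Serpina6, which encodes the corticosteroid-binding globulin, and Serpina10, a protease inhibitor, were likewise detected on no E14.5 array and were at least 24.4-fold and 18.04-fold higher.

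Others of these 12 were already detected on 1 or more of the E14.5 arrays. Umod, the most abundant protein of normal urine, read 11.46, 11.22 and 11.59 at E17.5 against 6.99, 5.67 and 5.41 at E14.5, a log2 change of 5.40 ± 0.36 (standard error). The epithelial defensins Defb1 and Defb19 changed by 5.31 ± 0.64 and 5.30 ± 0.37, the organic anion carrier Slc22a19 by 4.88 ± 0.41, and the glutathione transferases Gsta2 and Gsta1 by 4.80 each (standard errors 0.39 and 0.38). In all 6 of these genes E14.5 replicate 34 was the highest of its group. Ttr, a thyroxine carrier made in liver, completed the 12 and is described with the liver genes.

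The 12 named genes with the largest fall were of other kinds. Hbb-y and Hba-x, both embryonic globins, changed the most: Hbb-y, of primitive red cells, read 5.29, 5.52 and 5.32 at E17.5 against 11.90, 13.88 and 13.56 at E14.5, a log2 change of -7.74 ± 0.44. On E17.5 replicates 2 and 41 Hbb-y lay below the lowest detected levels, 5.50 and 5.56, so this size rests in part on readings below detection. Hba-x was at least 9.996-fold and Hbb-bh1 at least 3.64-fold lower at E17.5, where neither was detected. A second probe of Hbb-bh1 changed by -0.23 only and was not called. The adult globin Hba-a1 read 14.98, 15.07 and 15.14 at E17.5 against 14.95, 14.80 and 15.21 at E14.5, with overlapping groups, and the adult globin Hbb-b2 was called lower, at 11.77, 11.21 and 10.87 at E17.5 against 12.09, 11.76 and 12.01 at E14.5 (-0.67 ± 0.20). Car3, a carbonic anhydrase of muscle and fat, was at least 7.65-fold lower at E17.5, where it read 4.84, 4.74 and 4.65, against 8.56, 8.57 and 8.21 at E14.5. Zfp985, a zinc finger gene, read 4.58, 4.57 and 4.60 at E17.5 against 8.0, 8.25 and 8.45 at E14.5, at least 6.599-fold lower, yet its mutant arrays read 4.62, 4.55 and 6.34 at E17.5 and 8.29, 8.51 and 4.61 at E14.5. Its age change thus rested on groups that were uniform in WT and mixed in mutants. Slitrk5 and Syt1, known from neurons, fell by 2.60 and 2.24, Ebf3, a transcription factor of mesenchyme and neurons, by 2.54, and Crabp1, a retinoic acid binding protein, by 2.34 on the log2 scale. Sprr2g, of cornified epithelia, and Fam155a changed by -2.37 and -2.28, and Traf2, detected on no E17.5 array, was at least 3.14-fold lower.

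**Figure D2:**
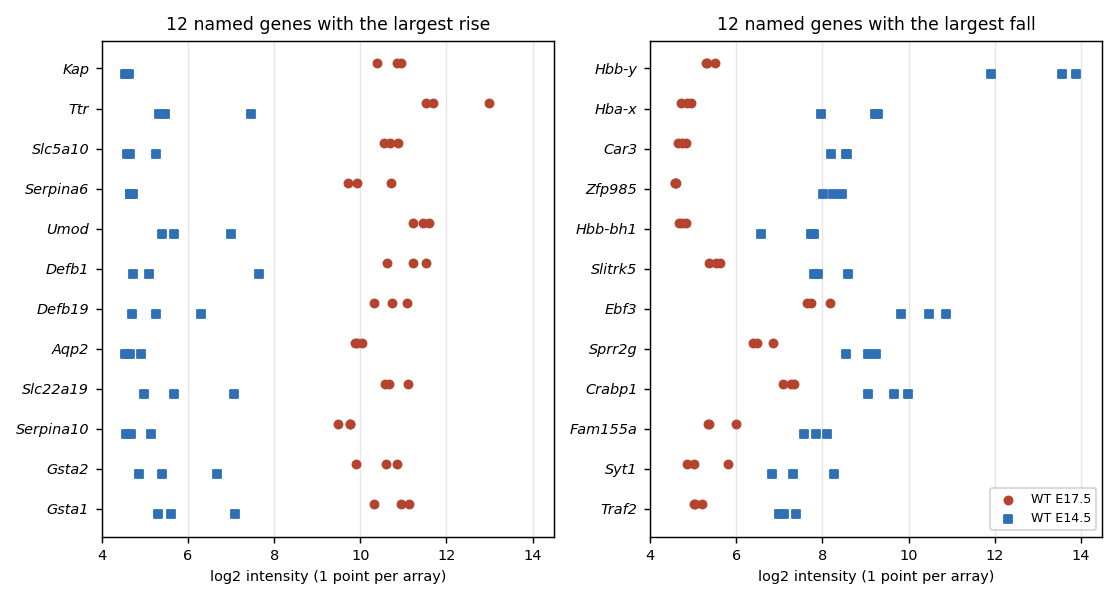
Log2 intensity (x axis) of the 12 named genes with the largest rise (left) and the largest fall (right), 1 point per array; red circles are the 3 WT E17.5 arrays and blue squares the 3 WT E14.5 arrays. The 2 ages lie apart in all 24 genes, and in Umod, Defb1, Slc22a19 and both Gsta genes the E14.5 array farthest to the right is replicate 34.

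Most genes of the proximal tubule rose. Of 34 tested genes of proximal tubule transport (39 listed), 31 were called higher and 0 lower, 26 of them by at least 2-fold, with a median of 2.43 beside -0.05 over all features. Slc34a1, the main brush border phosphate carrier, read 13.84, 13.50 and 13.58 at E17.5 against 11.45, 8.25 and 9.81 at E14.5, a log2 change of 3.80 ± 0.56 (adjusted p = 2.86e-04). Lrp2 (megalin), the endocytic receptor that takes up filtered protein, read 13.36, 13.38 and 13.31 at E17.5 against 10.96, 9.75 and 10.30 at E14.5. For both genes the E17.5 arrays lay close together and the E14.5 arrays were spread wider, with replicate 34 the highest and 57 the lowest. Slc22a6, the basolateral organic anion carrier OAT1, read 11.51, 11.11 and 11.66 at E17.5 against 8.17, 5.61 and 6.53 at E14.5 (4.65 ± 0.47), and the fatty acid carrier Slc27a2 changed by 4.18 ± 0.46.

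In the list of brush border enzymes, which also holds other proximal tubule genes such as Kap, 15 of 16 tested were called higher, with a median of 2.41. Dpep1, a dipeptidase, was at least 7.78-fold and Miox, the first enzyme of inositol breakdown, at least 17.6-fold higher, with 8.78, 8.11 and 8.49 for Dpep1 at E17.5 against 5.06, 4.89 and 4.89 at E14.5. The angiotensin-converting enzyme Ace read 9.41, 9.0 and 9.36 at E17.5 against 7.08, 5.09 and 5.57 at E14.5, and the angiotensin receptor Agtr1a rose by 1.76 ± 0.18. The meprin subunit Mep1b changed by 3.60 and aminopeptidase N (Anpep) by 2.17. Mme (neprilysin), which podocytes also carry, changed by 1.03, with 10.30, 9.93 and 9.77 at E17.5 against 8.91, 9.07 and 8.96 at E14.5; of its 3 probes 1 was not called (0.10).

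Promoters of these genes were read for short motifs, since HNF1 and HNF4 factors are known to drive proximal tubule genes. The RefSeq table (build GRCm38.p6) gives 250 bases before each start, and 45 of the 50 proximal tubule transport and brush border genes had 62 promoters in it. The HNF1 half-site GTTAAT, sought on both strands, lay in 14.5% of them, beside 6.43% of all 32851 promoters and 9.27% of the 852 promoters of genes called at least 2-fold higher. CAAAG, the core of the HNF4 site, is too short to be selective: it lay in 66.1% of the proximal tubule promoters and in 48.6% of all. Over the promoters of all tested named genes the shares were 4.26% for GTTAAT and 42.8% for CAAAG. These are counts of letters, with no measure of binding. The last 100 bases before the start of 2 of these genes are shown because their half-sites lie close to it; they were picked after the matches were known, and the capitals mark GTTAAT or its reverse complement.
Slc34a1 promoter, chr13:55399548-55399647, plus strand: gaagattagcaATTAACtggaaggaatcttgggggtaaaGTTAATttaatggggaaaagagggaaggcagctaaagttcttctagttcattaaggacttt
Slc22a6 promoter, chr19:8617896-8617995, plus strand: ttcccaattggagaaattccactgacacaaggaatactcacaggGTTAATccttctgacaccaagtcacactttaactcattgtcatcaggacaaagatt
The sites of Slc34a1 begin 89 and 61 bases before the start, and that of Slc22a6 begins 56 bases before it.

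Most tested genes of the downstream segments rose as well. In the loop of Henle, 9 of 12 tested genes were called higher and 0 lower (median 2.36). Slc12a1, the furosemide-sensitive salt carrier, read 12.82, 12.65 and 12.55 at E17.5 against 10.50, 8.50 and 9.62 at E14.5 (3.13 ± 0.36). Kcnj1, the potassium channel that works with it, changed by 3.86, and the tight junction claudins Cldn16, Cldn19 and Cldn10 by 2.14, 2.57 and 3.14. Egf, which adult loops and distal tubules make in quantity, read 7.21, 6.78 and 6.05 at E17.5 against 6.51, 6.16 and 6.35 at E14.5 and was not called (adjusted p = 0.241).

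Of 15 distal and connecting tubule genes, 13 were called higher (median 1.10). Pvalb, a calcium buffer of the distal convoluted tubule, was at least 9.90-fold higher, with 9.17, 8.70 and 8.55 at E17.5 against 4.86, 4.73 and 4.79 at E14.5. Slc12a3, the thiazide-sensitive salt carrier of the same cells, read 10.03, 9.97 and 10.22 at E17.5 against 9.27, 9.17 and 9.19 at E14.5, a change of 0.86 on its brightest probe. All 4 of its probes were called higher, and their changes ran up to 5.51, so the size of its rise depended on the probe. Kl (klotho), the co-receptor of FGF23, read 10.85, 10.01 and 10.09 at E17.5 against 7.14, 4.78 and 5.72 at E14.5. Klk1, tissue kallikrein, changed by 4.70 ± 0.49 and varied among the E17.5 arrays, at 10.10, 10.77 and 8.68.

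In the collecting duct, 13 of 14 principal cell genes were called higher (median 1.32). Aqp3 and Aqp4, the basolateral water channels, changed by 3.36 and 2.76. Scnn1a, the pore-forming subunit of the epithelial sodium channel, was at least 3.19-fold higher, and Scnn1b read 10.45, 10.60 and 10.98 at E17.5 against 9.32, 8.57 and 8.61 at E14.5. Of 12 intercalated cell genes, 10 were called higher (median 2.07). Foxi1, the transcription factor that specifies these acid-base cells, was detected at E17.5 only, at 6.80, 6.95 and 7.21, and was at least 2.80-fold higher. Of the other intercalated cell genes, Slc26a4 (pendrin) changed by 1.92 and Slc4a9 by 2.87. Atp6v1b1, a proton pump subunit, had 2 probes that disagreed: one was called higher, at 1.58, and the brighter one read 6.26, 6.07 and 6.26 at E17.5 against 6.24, 6.24 and 6.11 at E14.5. Slc4a1, shared with red cells, was not called (0.80, adjusted p = 0.0738).

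The urothelium that lines the pelvis rose in 5 of 7 tested genes (median 1.37), all of them uroplakins, the plaque proteins of its apical membrane. Upk2 read 9.02, 8.93 and 8.59 at E17.5 against 7.18, 4.83 and 4.70 at E14.5, and Upk1b changed by 2.43 ± 0.43. Trp63 and Grhl3, transcription factors of this epithelium, were not called, at 0.52 and -0.22.

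Podocytes, the filter cells of the glomerulus, were mixed. Of 15 tested genes, 5 were called higher (33.3%, beside 20.2% of all features) and 2 lower (13.3%, beside 23.5%). The median was 0.26, or 0.15 without E14.5 replicate 57. Synpo, of the foot process cytoskeleton, read 11.69, 11.75 and 11.93 at E17.5 against 10.90, 9.92 and 10.17 at E14.5 (1.46 ± 0.21). Nphs1 (nephrin), the backbone of the slit diaphragm, read 7.18, 7.12 and 7.16 at E17.5 against 6.51, 5.28 and 5.75 at E14.5, and Podxl, of the negatively charged coat, changed by 1.09. Robo2, expressed in podocytes and in progenitors, fell by 0.89 on the log2 scale, and Dach1, called lower as well, was detected on 1 E14.5 array and on no E17.5 array. The basement membrane under these cells and the tubules rose in 16 of 23 genes (median 0.66). Its mature type IV collagen chains led: Col4a4 read 9.06, 8.93 and 8.67 at E17.5 against 6.40, 5.52 and 5.49 at E14.5, and Col4a3 was at least 2.62-fold higher. Col4a2, of the chain pair already present in early basement membranes, changed by 1.03, and the laminin chains Lama1 and Lama5 by 1.27 and 1.07.

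**Figure D3:**
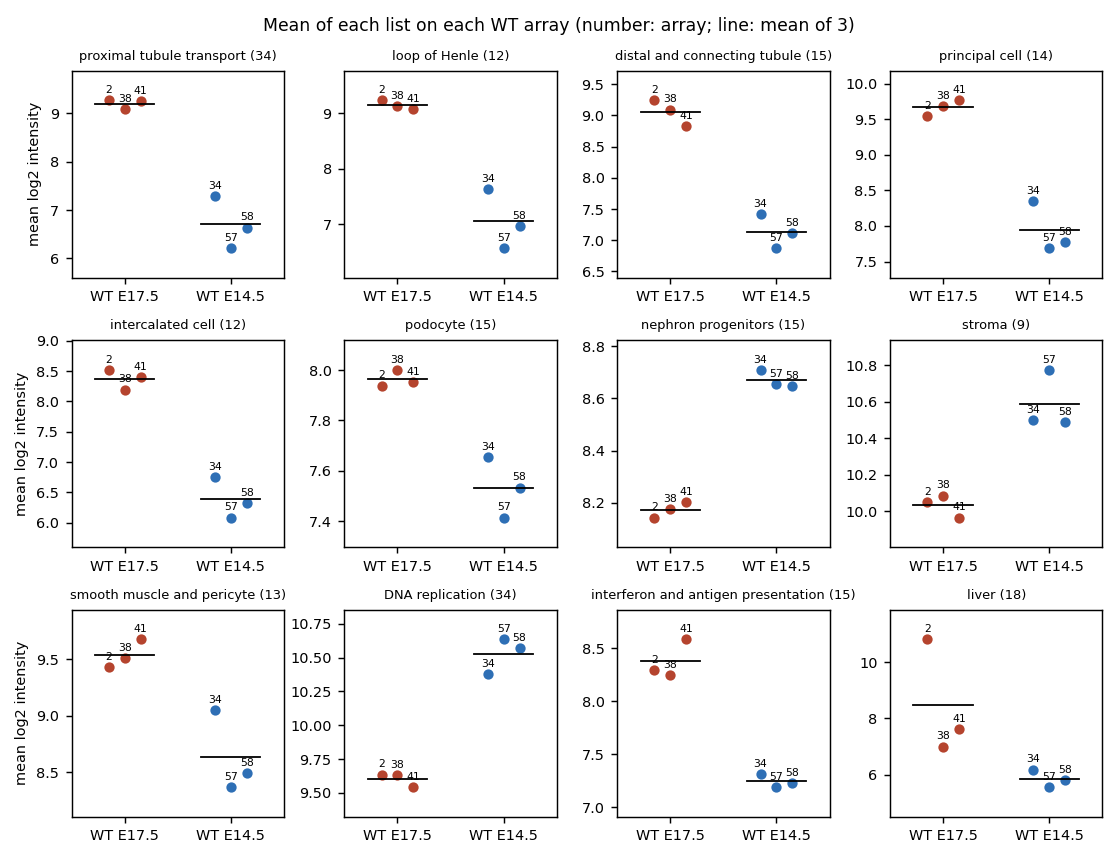
Mean log2 intensity (y axis, own scale in each panel) over the tested genes of 12 lists on each WT array, with the array number above each point and a line at the mean of 3 arrays; E17.5 in red on the left, E14.5 in blue on the right. In the tubule lists E14.5 replicate 34 lies above 57 and 58, and in the liver panel E17.5 replicate 2 lies alone at 10.81.

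Genes of the cells that make nephrons were mostly lower. Of 15 nephron progenitor genes, 9 were called lower and 1, Tmem100, higher (median -0.50). Six2, which keeps progenitors self-renewing, read 6.76, 6.54 and 7.12 at E17.5 against 8.01, 7.91 and 7.78 at E14.5, a log2 change of -1.10 ± 0.17. Eya1, its partner, read 8.59, 8.50 and 8.70 at E17.5 against 9.75, 9.91 and 9.98 at E14.5. Meox2 fell by 1.73 and Gdnf, the ligand that makes the ureteric bud branch, by 0.51 on the log2 scale. Cited1, of the least committed progenitors, was not called (-0.33, adjusted p = 0.144). Without E17.5 replicate 2 the count of progenitor genes called lower was 6, with a median of -0.35.

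Genes of the early nephron, in which Wnt4 and Notch signals turn progenitors into epithelium, showed no common direction, with 4 of 19 called higher and 3 lower (6 lower without E17.5 replicate 41). The 4 and 3 genes are 21.1% and 15.8%, beside 20.2% and 23.5% of all features. Wnt4, Lhx1, Jag1 and Pax8 were all below the threshold, at 0.34, -0.11, 0.35 and 0.23. The Notch target Hes5 read 5.72, 5.82 and 5.58 at E17.5 against 6.25, 6.42 and 6.79 at E14.5, and the nephron patterning factors Irx2 and Irx3 rose by 1.10 and 0.76, while Irx1 was at least 1.26-fold higher. Of 9 ureteric tip genes, Etv4 (-0.73), Etv5 (-0.56) and Gfra1 (-0.40) were called lower and Wnt9b, of the ureteric stalk, higher (0.88), while Ret, the receptor for Gdnf, was at -0.30 and not called. The tip genes called lower were 33.3%, beside 23.5% of all features, and the share called higher was 11.1%, beside 20.2%. The Etv5 and Gfra1 calls were both lost without E17.5 replicate 2 (-0.43 for Etv5, -0.39 for Gfra1) or without E14.5 replicate 58 (-0.51 for Etv5, -0.26 for Gfra1), which left 1 tip gene called lower in either case.

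In the stroma, 5 of 9 genes were called lower and 0 higher (median -0.39). Foxd1, which marks the cortical stroma, read 9.18, 9.06 and 8.74 at E17.5 against 10.36, 10.88 and 10.32 at E14.5 (-1.53 ± 0.15). Crabp1, which is on this list, read 7.09, 7.34 and 7.27 at E17.5 against 9.06, 9.99 and 9.67 at E14.5. Tcf21 and Pdgfra were not called, at 0.17 and -0.35. Smooth muscle and pericyte genes, of cells that descend in part from this stroma, were called higher in 10 of 13 and lower in 1 (median 0.94). Acta2, smooth muscle actin, read 14.51, 14.53 and 14.49 at E17.5 against 13.53, 11.81 and 12.23 at E14.5, and Myh11 changed by 2.35 ± 0.55. The exception was Des (desmin), which fell by 0.95.

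Of 15 endothelial genes, 14 were called higher, with a median of 0.49. The count was 8 without E14.5 replicate 57 or E17.5 replicate 41 and 9 without E14.5 replicate 58, with medians of 0.48, 0.42 and 0.46. Pecam1 read 9.50, 9.73 and 9.84 at E17.5 against 9.03, 9.21 and 9.35 at E14.5, and the largest changes were those of Eng, a TGF-beta co-receptor, and Ehd3, known from glomerular endothelium, at 1.20 and 1.08. Macrophage genes were called higher in 4 of 13, or 30.8%, beside 20.2% of all features (median 0.07). The complement genes C1qb and C1qc changed by 0.67 and 0.50, and the mannose receptor Mrc1 was at 8.90, 9.0 and 8.80 at E17.5 against 8.92, 9.0 and 8.92 at E14.5. Neutrophil and mast cell genes were called higher in 4 of 7, and S100a8 and S100a9 changed by 3.17 and 3.06, and both were highest on E17.5 replicate 2, at 10.38 and 9.42.

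Transcription factors of the segments rose with their segments: 10 of 11 tested were called higher (median 1.48). Hnf4a, of the proximal tubule, read 11.59, 11.51 and 11.46 at E17.5 against 10.59, 9.42 and 9.97 at E14.5 (1.53 ± 0.22). Nr1h4, the bile acid receptor FXR, and Vdr, the vitamin D receptor, changed by 2.91 and 2.93, and the orphan receptor Esrrg by 1.48. The vitamin D and mineral hormone genes were called higher in 5 of 5. Cyp27b1, which activates vitamin D, was at least 1.90-fold higher, Cyp24a1, which inactivates it, changed by 3.05 ± 0.45, and the parathyroid hormone receptor Pth1r changed by 2.10 ± 0.16. Hox genes, which give the kidney its place along the body axis, were called lower in 6 of 25 and higher in 0 (median -0.14), and that share, 24%, was close to the 23.5% of all features. Hoxd12 fell by 1.50, at 5.98, 6.05 and 6.11 at E17.5 against 7.54, 7.80 and 7.29 at E14.5, while Hoxa11, needed with its paralogs to form the kidney, overlapped between ages at 0.05.

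Metabolic pathways changed by different amounts. All 7 tested gluconeogenesis genes were called higher (median 1.99). Fbp1, fructose bisphosphatase, read 11.41, 10.95 and 11.10 at E17.5 against 7.16, 5.64 and 6.32 at E14.5 (4.78 ± 0.31). G6pc, which releases free glucose, was at least 8.01-fold and Pck1, which starts the pathway, at least 2.25-fold higher. Amino acid breakdown was called higher in 15 of 20 and lower in 2 (median 1.47). Without any 1 of the E17.5 replicates 2, 38 and 41 it was called higher in 11. Hgd, of tyrosine breakdown, and Ass1, which makes arginine precursor in the proximal tubule, changed by 4.23 ± 0.23 and 4.03 ± 0.25, with Ass1 at 11.11, 10.82 and 11.09 at E17.5 against 7.69, 6.38 and 6.85 at E14.5. A second probe of Hgd, also called higher, changed by 1.33. Gldc, of glycine cleavage, and Ddc, which makes dopamine, were the ones called lower, at -0.67 and -0.50. Detoxification genes were called higher in 16 of 24 and lower in 2 (median 0.96), among them Cyp2e1 (at least 3.85-fold) and Nat8 (3.82 ± 0.35).

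Genes of energy supply moved by less. Of 21 fatty acid oxidation genes 15 were called higher (median 0.40), led by the peroxisomal Acox2 at 3.37 and by Acadm, the medium-chain dehydrogenase, at 13.60, 13.34 and 13.54 at E17.5 against 12.08, 11.46 and 11.77 at E14.5. Without E17.5 replicate 2 this list had 11 called higher and 2 lower. The citric acid cycle was called higher in 11 of 20 (median 0.41) and the respiratory chain in 18 of 47 (median 0.23, highest 0.56, none past 2-fold). Without E17.5 replicate 2 the citric acid cycle had 9 called higher (median 0.28). For the respiratory chain all calls were higher, a share of 38.3%, beside 20.2% of all features called higher. Without E14.5 replicate 57 the count was 11 higher, and without E17.5 replicate 2 it was 13 higher and 1 lower. With cyclic loess normalization it was 27 higher, and over all alternatives 4 to 28, so its place beside all features depended on the processing. Cs, citrate synthase, overlapped between the ages, at 11.73, 11.69 and 11.71 at E17.5 against 11.41, 11.69 and 11.57 at E14.5. In the glycolysis and hypoxia list 12 of 21 were called higher and 1 lower (median 0.44). Ndrg1, induced by low oxygen and by differentiation, stood out at 3.60 ± 0.25, whereas Ldha, Pgk1 and the glucose carrier Slc2a1 were not called (0.17, 0.08 and 0.25). Lysosomal genes were called higher in 15 of 23 (median 0.51), with the cathepsins Ctsh at 1.71 and Ctsb at 0.59.

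Against these rises, all 34 tested DNA replication genes were called lower, beside 23.5% of all features, with a median of -0.91. Mcm5, of the replicative helicase, read 11.94, 11.95 and 11.93 at E17.5 against 12.78, 12.90 and 12.90 at E14.5, and Tyms, which makes thymidylate, fell by 1.11 ± 0.08 on the log2 scale. Cdc6, which loads the helicase, read 9.22, 9.18 and 8.85 at E17.5 against 10.17, 10.49 and 10.31 at E14.5. Ccne2 (cyclin E2) fell furthest, by 1.81 ± 0.26. The 3 arrays of each age differed little beside the gap between the ages, but the falls were shallow, with 8 of 34 past 2-fold. Leaving out any 1 array or changing the processing left 32 to 34 of them called lower and 0 higher.

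Genes of mitosis were called lower in 18 of 25 (median -0.58). Cdk1, the mitotic kinase, read 10.96, 10.99 and 10.55 at E17.5 against 11.85, 11.92 and 11.86 at E14.5 (a second probe, at -0.36, was not called), and Aurkb changed by -0.71. Of 10 genes that restrain the cycle, 5 were called higher (median 0.76). Cdkn1a (p21) read 10.06, 9.97 and 9.79 at E17.5 against 8.91, 8.26 and 8.25 at E14.5, Rb1 changed by 1.22 and Ccng2 by 1.76, while Cdkn1c (p57), at 14.88, 14.77 and 14.85 at E17.5, overlapped between ages (-0.09). Chromatin regulators were called lower in 9 of 15 (median -0.52), with Ezh2, the Polycomb methyltransferase, at 10.29, 10.25 and 10.13 at E17.5 against 11.24, 11.26 and 11.22 at E14.5, and splicing factors in 15 of 17 (median -0.53). Ribosome assembly factors were called lower in 9 of 13 (median -0.58), Nop56 by -1.07. The ribosomal proteins themselves were called lower in 5 of 38, or 13.2%, beside 23.5% of all features (median -0.05). With cyclic loess in place of quantile normalization, 8 assembly factors were called lower (median -0.46), and of the ribosomal protein genes 7 were called higher and 5 lower (median 0.11).

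Promoters of the cycle genes were read in the same way. Cell cycle genes are known to be timed through CCAAT boxes (bound by NF-Y), the CHR element TTTGAA (bound by the MuvB complex in late phases) and E2F sites (TTTCCCGC and TTTGGCGC were sought here). In 22 promoters of 21 mitosis genes, all motifs sought on both strands, CCAAT lay in 81.8%, beside 33.9% of all promoters, and CCAAT together with TTTGAA lay in 45.5%, beside 5.55%. In 34 promoters of 29 DNA replication genes these shares were 55.9% and 5.88%, but an E2F site lay in 11.8%, beside 1.30% of all. Promoters of genes called at least 2-fold lower, as a whole, held CCAAT in 46.7% and an E2F site in 1.93%. Over the promoters of all tested named genes these shares were 34.9% and 2.24%, and CCAAT together with TTTGAA lay in 4.03%. Base composition differed too: the median ratio of observed to expected CpG was 0.86 for mitosis and 0.90 for replication genes, 0.31 for proximal tubule genes, 0.73 over the tested named genes and 0.38 over all promoters. Below are 3 promoters chosen after the matches were known because they hold several sites close to the start. Capitals mark CCAAT or its complement ATTGG and TTTGAA in Cdk1 and Cdc20, and CCAAT or ATTGG and TTTGGCGC in Mcm6.
Cdk1 promoter, chr10:69352913-69353012, minus strand: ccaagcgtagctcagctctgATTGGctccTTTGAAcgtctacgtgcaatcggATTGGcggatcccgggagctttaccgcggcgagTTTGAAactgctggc
Cdc20 promoter, chr4:118437344-118437443, minus strand: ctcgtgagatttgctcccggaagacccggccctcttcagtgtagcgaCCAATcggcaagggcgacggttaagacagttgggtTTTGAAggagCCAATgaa
Mcm6 promoter, chr1:128359706-128359825, minus strand: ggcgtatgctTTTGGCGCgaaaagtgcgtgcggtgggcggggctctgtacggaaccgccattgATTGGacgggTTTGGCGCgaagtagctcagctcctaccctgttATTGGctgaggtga
Cdc20, which starts the exit from mitosis, fell by 0.44 and Mcm6, a helicase subunit, by 0.87 on the log2 scale. The size depended on the probe: all 4 probes of Cdc20 were called lower, at -1.09 to -0.44. Of 4 probes of Mcm6, at -2.43 to -0.72, 3 were called lower. Both genes were named after their values were seen.

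**Figure D4:**
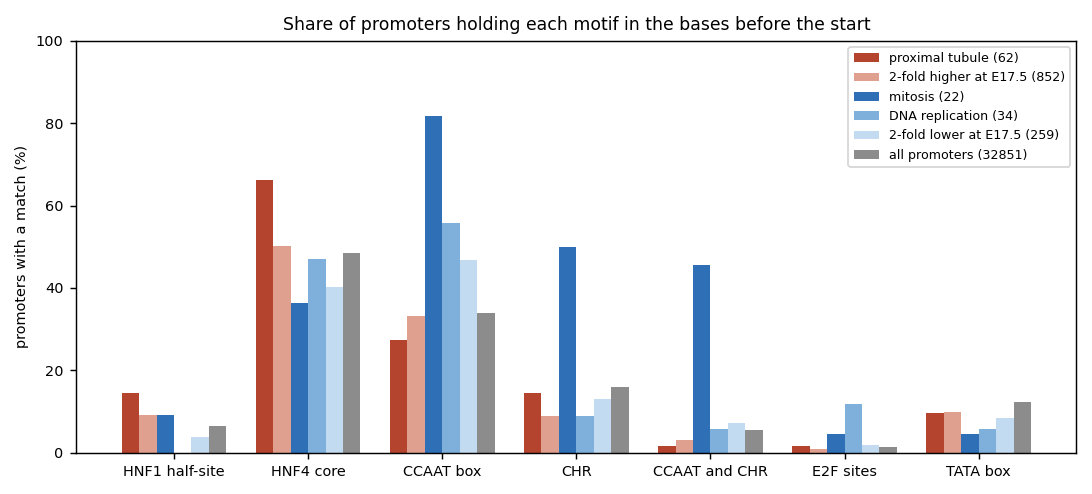
Share of promoters (y axis, percent; 250 bases before the start, both strands) holding each motif, for 5 gene sets and all 32851 promoters in grey; the number of promoters is in brackets. The mitosis bar stands at 81.8% for the CCAAT box and 45.5% for CCAAT with CHR, and the proximal tubule bar at 14.5% for the HNF1 half-site.

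Some of the falling genes carry microRNA genes, whose mature products were not measured on this array. Of 411 tested genes with a microRNA gene inside them or within 5000 bases on the same strand, 184 were called (44.8%, against 43.6% of all features), 92 higher and 92 lower, a share close to that of all features. Among the hosts called lower were several whose microRNAs share seeds (bases 2 to 8, in capitals; RefSeq, build GRCm38.p6), named after their values were seen. The first 4 sequences share AAAGUGC, the next 2 share AUUGCAC and the last 2 share AGUGCAA.
mmu-miR-17-5p (Mir17hg): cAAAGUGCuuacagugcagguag
mmu-miR-20a-5p (Mir17hg): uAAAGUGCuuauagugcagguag
mmu-miR-106b-5p (Mcm7): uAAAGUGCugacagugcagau
mmu-miR-93-5p (Mcm7): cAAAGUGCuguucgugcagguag
mmu-miR-92a-3p (Mir17hg): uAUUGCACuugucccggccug
mmu-miR-25-3p (Mcm7): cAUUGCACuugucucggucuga
mmu-miR-301a-3p (Ska2): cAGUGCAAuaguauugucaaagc
mmu-miR-130b-3p (2610318N02Rik): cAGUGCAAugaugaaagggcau
Mir17hg, the transcript of the miR-17-92 cluster (chr14:115044390-115046728, plus strand), read 10.05, 10.28 and 10.15 at E17.5 against 11.003, 11.29 and 11.35 at E14.5 (-1.06 ± 0.13). Some of its hairpins lie up to 719 bases outside the annotated gene. Mcm7, a helicase subunit whose intron holds the second cluster, read 10.32, 10.31 and 10.24 at E17.5 against 11.10, 11.26 and 11.28 at E14.5. Ska2, of the spindle attachment complex, changed by -0.89 and the uncharacterised gene 2610318N02Rik by -1.22. The seed AGUGCAA is also that of mmu-miR-721, in Cux1, which was called higher, at 0.45.

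Genes that mark fetal as opposed to adult growth were called lower in part. All 5 tested timing genes, RNA binding proteins and chromatin proteins known to be switched off during development, were called lower (median -1.01). Igf2bp3 read 10.41, 10.69 and 10.75 at E17.5 against 11.47, 11.71 and 11.71 at E14.5. Lin28b, which blocks maturation of the let-7 microRNAs, was at least 1.67-fold lower, as it was detected on no E17.5 array, and likewise Trim71 at least 1.42-fold and Hmga2 at least 1.33-fold. Of 12 imprinted growth genes 7 were called lower and 0 higher (median -0.42). Nnat read 6.42, 6.64 and 6.99 at E17.5 against 8.45, 8.73 and 8.63 at E14.5, whereas Igf2 itself overlapped, at 14.99, 15.01 and 14.94 at E17.5 against 15.04, 14.90 and 15.17 at E14.5.

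Signalling genes showed no common direction. The Wnt list had 2 of 17 called higher (11.8%, beside 20.2% of all features) and 6 lower (35.3%, beside 23.5%). Without E14.5 replicate 58 it had 3 called lower. The Wnt inhibitors of the Sfrp family were opposed: Sfrp1 read 11.63, 11.93 and 11.97 at E17.5 against 10.64, 11.20 and 10.68 at E14.5, and Sfrp2 read 9.87, 9.99 and 9.78 at E17.5 against 10.75, 11.18 and 10.76 at E14.5. A second probe of Sfrp1 was not called (0.16). The target gene Axin2 was not called (-0.13). In the Hedgehog list the ligand Shh was called higher (0.62; a second probe, at 0.23, was not) and the transducers Gli2 and Gli3 lower (-0.58 and -0.89). Growth factor ligands were likewise split, with Fgf1 at 1.74 and Btc at 1.09, against Fgf7 at -1.02. In the interstitial matrix list Eln (elastin) rose by 1.50 and Lum (lumican) fell by 1.24, and Col1a1 was not called. Of 3 probes of Fn1 (fibronectin), 1 was called lower (-0.88) and the brightest was at -0.04.

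Genes of the interferon response and antigen presentation were called higher in 11 of 15 and lower in 1 (median 0.90). Oasl2, an antiviral protein, read 9.36, 9.56 and 10.19 at E17.5 against 5.92, 5.08 and 5.82 at E14.5, and Ifit3 read 8.14, 8.21 and 9.48 at E17.5 against 5.37, 5.30 and 5.61 at E14.5. Replicate 41 was the highest E17.5 array for both. Of the class I heavy chains, H2-D1 changed by 1.24, and the gene counted as lower was H2-K1, whose 2 probes were called in opposite directions, at -0.79 and 2.07. The glucocorticoid list had 6 of 11 called higher: Mt1 (metallothionein) changed by 2.14 ± 0.38 and Klf9 by 1.77, but Fkbp5 and Tsc22d3, 2 direct targets of the receptor, were not called (-0.12 and 0.13). Heat shock genes were called higher in 3 and lower in 4 of 11 (2 lower without E14.5 replicate 34 or E17.5 replicate 38). The 3 and 4 genes are 27.3% and 36.4%, beside 20.2% and 23.5% of all features.

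RNA of neighbouring tissues was looked for with lists of their markers, most of which were too dim to test. Of 28 liver genes 18 were tested and 13 called higher, and the mean over the 18 was 10.81, 6.99 and 7.61 on E17.5 replicates 2, 38 and 41 against 6.18, 5.55 and 5.80 at E14.5. Ahsg (fetuin), a plasma protein gene, read 13.25, 5.60 and 7.97 at E17.5 against 4.79, 4.81 and 4.73 at E14.5, and Apoa1 read 11.89, 5.59 and 7.50 at E17.5 against 6.01, 6.16 and 5.92 at E14.5. Replicate 2 thus stood apart from 38 and 41 in these genes. Without E17.5 replicate 2 the liver list had 11 called higher and a median of 1.18, against 2.30 with it, without E14.5 replicate 34 it had 8 called higher and without E14.5 replicate 57 or 58 it had 4 or 5; over all alternatives the count ran from 4 to 16. Ttr and Kng1 (kininogen) on the same list were high on all 3 E17.5 arrays: Ttr read 12.98, 11.54 and 11.70 at E17.5 against 7.47, 5.32 and 5.46 at E14.5, and Kng1 read 12.98, 12.02 and 12.12 at E17.5 against 8.99, 7.21 and 8.06 at E14.5. The part of liver RNA in the other results was not tested. Without replicate 2 the proximal tubule transport list had 29 called higher and a median of 2.39. Amino acid breakdown then had 11 called higher (median 1.23), as many as without E17.5 replicate 38 or 41. Fatty acid oxidation had 11 higher and 2 lower (median 0.37), and the citric acid cycle had 9 higher (median 0.28). Gluconeogenesis kept 7 called higher (median 1.91). Of 12 adrenal genes 2 were tested, of which Mc2r, the ACTH receptor, was at least 2.36-fold lower at E17.5. Of 15 nerve genes 6 were tested and 4 called lower (median -0.75), among them Gap43 at 6.93, 7.33 and 6.66 at E17.5 against 7.80, 8.70 and 8.27 at E14.5. Skeletal muscle genes were called lower in 2 of 11, or 18.2%, beside 23.5% of all features.

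The WT arrays also differed in how far along they lay. Each array was placed on a scale on which the E14.5 mean of the other arrays is 0% and the E17.5 mean is 100%, over the genes that changed at least 2-fold in a fit without that array. E17.5 replicates 2, 38 and 41 had medians of 95.0%, 92.3% and 101% over 1427, 1365 and 1202 genes. E14.5 replicates 34, 57 and 58 had medians of 26.3%, -15.2% and -3.16% over 1525, 1167 and 1250 genes. Replicate 34 is part of the 0% mark for 57 and 58, so the 3 places depend on each other. Replicate 34 lay nearer to E17.5 both over rising genes (27.5%) and over falling genes (22.4%). Replicate 57 was the only WT array with Xist, the transcript of the inactive X chromosome, at 12.10 against 4.54 to 4.60 on the other 5, and the only one without the Y-linked Eif2s3y, at 4.67. Sex was thus unequal between the ages, and stage and sex cannot be told apart in the place of replicate 57.

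Whether any of this was particular to WT was tested by the difference between the age change in WT and that in Pkd1-/-. Of 14882 features 26 passed (0.175%), with 1585 at an unadjusted p under 0.05, and the change was the more positive in WT in 17 of the 26 and in mutants in 9. Of these 26, 23 were named genes, and 12 of them are described here: the 10 with the smallest p, and Kap and Slc5a10. In 11 of the 12, Tomm22 being the exception, no E14.5 array of either genotype detected the gene, so the differences were read at E17.5 and the sizes of the fitted changes are not measured. Over all features, 4763 of the 4775 features called in both genotypes had the same sign. Ctsc, the lysosomal cathepsin C, read 8.85, 8.95 and 8.61 in WT at E17.5 and 5.80, 5.72 and 5.43 in mutants, and all arrays of both genotypes lay between 5.19 and 5.32 at E14.5. It was at least 9.89-fold higher at E17.5 in WT (adjusted p of the difference between genotypes = 6.58e-06). Haao, of tryptophan breakdown, read 7.66, 7.66 and 8.12 in WT at E17.5, at least 4.98-fold above E14.5, and 4.73, 4.89 and 4.68 in mutants at E17.5, where no array detected it. Haao thus passed the detection filter only through the 3 WT arrays at E17.5, where it is high, so its test is no independent support for a difference. Miox read 10.38, 9.38 and 9.14 in WT at E17.5, and 5.47, 5.45 and 5.36 in mutants, where 1 array detected it. G6pc read 9.08, 8.20 and 8.22 in WT at E17.5 and 5.49, 5.29 and 5.88 in mutants. Of the largest rises, Kap read 7.61, 4.99 and 6.71 and Slc5a10 read 8.29, 7.74 and 7.05 in mutants at E17.5, all below the WT values given above (adjusted p of the difference = 0.029 for Kap and 0.00669 for Slc5a10). Bst1 was detected on no WT array at either age and passed the filter through the 3 mutant E17.5 arrays, at 7.24, 7.66 and 8.14, so no age change in WT can be read from it.

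Tomm22, of the mitochondrial import pore, and Cdc42ep1, a cytoskeletal regulator, both lie on chromosome 15. Tomm22 changed by 1.74 in WT, against 0.03 in mutants. Cdc42ep1 was at least 3.12-fold higher at E17.5 in WT and was detected on no mutant array. Like Haao, it passed the filter only through the WT E17.5 arrays, so its test is no independent support either. A second probe of Tomm22 was called in the opposite direction in WT, at -1.06. Krt14 and Upb1 were at least 2.63-fold and 3.85-fold higher at E17.5 in WT, and were detected on all 3 mutant E17.5 arrays as well, at 5.54, 5.74 and 5.50 for Krt14 and at 5.91, 5.91 and 6.23 for Upb1. The other largest rises and falls were below the threshold for a difference between genotypes: Umod, for example, changed by 5.40 in WT and 4.04 in mutants (adjusted p = 0.387), and the adjusted p for Aqp2 was 0.477. A p above the threshold does not show that these were alike.

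**Figure D5:**
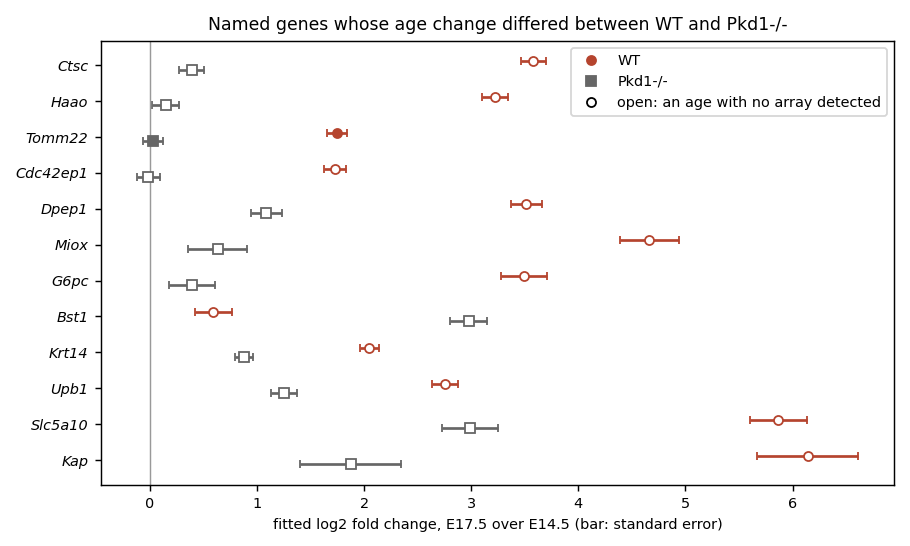
Fitted log2 fold change (x axis, E17.5 over E14.5) in WT (red circles) and in Pkd1-/- (grey squares) for 12 of the 23 named genes whose age change differed between the genotypes; bars are standard errors, and open symbols mark fits with no array detected at one or both ages, whose size is not measured. Only Tomm22 has filled symbols, at 1.74 in WT and 0.03 in mutants; the WT point lies to the right in 11 of these 12, but in 17 of all 26 features that passed.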

How the data were processed

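RNA was hybridised to Illumina Mouse WG-6 version 2 BeadChips. The deposited intensities, summarised by the authors in BeadStudio, are not normalized between arrays, and beside each of them the authors deposited a detection p-value against the negative controls. The authors' second table, background-subtracted and quantile normalized on the log2 scale, holds deposited intensities back on the linear scale and served as an alternative only. The submitters' notes name limma.

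The first table was corrected by the normal-exponential model using the detection p-values (offset 16), quantile normalized and log2 transformed with limma 3.58.1 in R 4.3.3. Probes with a detection p under 0.05 on at least 3 of the 12 arrays were kept, 21526 of 45281, and the brightest kept probe stood for a gene, giving 11616 named genes and 3266 unnamed probes. Between 19397 and 20290 probes (42.8 to 44.8%) were detected per array, with median intensities of 10.8 to 21.5; the number of arrays limits the precision. One model with 4 groups gave moderated two-sided tests, with Benjamini-Hochberg adjustment over all 14882 features, and was tested on simulated data. Where no array of a group detected a gene, its fold is written as "at least": the other group's mean against the lowest detected level.

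Genes were named by rule: the 12 largest rises and falls with groups that do not overlap, the first 4 members and up to 3 further called members of each list, and the 10 smallest p of the genotype difference; others are said to be named after their values were seen, or only extend a count (such as Tmem100, Robo2, Dach1, Irx1, Irx3, Trp63, Grhl3, Gldc, Ddc, H2-K1 and H2-D1). The samples, gene lists and motifs were chosen with earlier results of these data known. The chip was not tested as a block, since the headers name none.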

Additional observations from a re-analysis of the deposited data

Results flagged for a closer look

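The age changes of 23 named genes differed between WT and Pkd1-/- kidneys in the test of that difference with limma, of which 12 are named by the rule. The fitted difference, WT change minus mutant change on the log2 scale, was 3.19 for Ctsc, 3.07 for Haao, 1.71 for Tomm22, 1.74 for Cdc42ep1, 2.43 for Dpep1, 4.03 for Miox, 3.10 for G6pc, -2.39 for Bst1, 1.17 for Krt14, 1.50 for Upb1, 2.88 for Slc5a10 and 4.27 for Kap. In 10 of them, all but Tomm22 and Bst1, the gene was detected on all 3 WT arrays at E17.5 and on none at E14.5, so the fitted difference depends on values below background and is no measure of size. Bst1 was detected on no WT array and passed the filter through the mutant E17.5 arrays alone, so its value gives no age change in WT. Haao and Cdc42ep1 passed the filter through the WT E17.5 arrays alone, where they are high. Tomm22 had a second probe that moved the opposite way in WT. Groups of 3 arrays are too small for a test of a single outlying array.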

How the results depend on the processing

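The count of features called, 6491, ran from 5207 to 6803 when any 1 of the 12 arrays was left out, and stayed within 1.5 times under every other alternative run. With cyclic loess normalization 57.6% of the calls were higher, against 46.2%, so which direction was the more numerous depended on the normalization. The count past 2-fold, 1320, ran from 1167 to 1525 without 1 array; it was 866 of 12057 features with probes detected on all 12 arrays, and 1729, of which 1074 higher, from the authors' table. The 26 features whose age change differed between genotypes were 18 to 39 without 1 array, 7 from the authors' table, 44 with an offset of 50, 2 with probes detected on all 12 arrays, 332 with array weights, and 16 without the 2 arrays with high Xist. Of 356 genes the rule names, 287 were called and 247 of those under every alternative that measured them; 40 calls were lost under at least 1 (among those in the text Etv4, Etv5, Gfra1, Ahsg and Hbb-bh1) and 30 genes gained a call. The ribosomal protein gene Rplp0 reversed, at 0.054 against -0.32, with the mean of its probes in place of the brightest. Of 130 genes named by the rule with several kept probes, 37 had probes on both sides of the threshold. Besides those given with the results, a further probe was not called for Etv5, Hes5, Tmem100, Robo2, Dach1, Igf2bp3, Mcm6, H2-D1 and Cux1. Where all probes of a gene were called, sizes could still differ between probes. Examples are Gsta1 (1.48 and 4.80), Slc22a19 (1.68 to 4.88) and Mep1b (1.37 to 3.60). With genes undetected at one age set at their bound, list medians kept their sign; the median of neutrophil and mast cell genes was then 0.52 against 1.09, that of cell cycle exit 0.52 against 0.76 and that of fetal timing genes -0.71 against -1.01. Of 57 list medians compared, 46 moved past the spread between arrays under at least 1 alternative, and 11 stayed within it throughout. None was counted as reversed past that spread. Medians near no change were left out of that count, such as that of ribosomal proteins, at -0.05 and, with cyclic loess, 0.11. No paired analysis was possible, because the labels name no litters and pair no arrays across ages. WT and mutant littermates could thus not be matched in the test between genotypes, and differences between litters were not modelled. The chip as a block was not run, and the 6 WT arrays alone give no difference between genotypes. Groups of 3 arrays, the unequal sex and the place of E14.5 replicate 34 limit what can be said of small changes. Genes that no array of a group detected are given as bounds. Where only some arrays of a group detected a gene, the fitted size rests in part on readings below detection.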

Other observations

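Some gene families, grouped by symbol after the values were seen, are set here beside the 20.2% of all features called higher at E17.5 and the 23.5% called lower. Of 244 tested solute carriers (Slc), 112 were called higher (45.9%) and 26 lower (10.7%), and of 28 cytochromes P450 14 were called higher (50%) and 0 lower. Vacuolar proton pump subunits (Atp6v) were called higher in 11 of 16 (68.8%) and lower in 0, and glutathione, sulfo- and glucuronosyl transferases higher in 21 of 35 and lower in 3. In contrast, of 237 zinc finger genes (Zfp) 8 were called higher (3.38%) and 85 lower (35.9%; median -0.22), of 57 histone genes 3 were called higher and 29 lower (50.9%; median -0.42), and of 16 nucleoporins 0 were called higher and 13 lower (median -0.60). These are descriptions without a test.

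Genes on the X chromosome were at least 2-fold higher in 13 of 360 (3.61%) and at least 2-fold lower in 15 (4.17%), beside 817 (7.27%) and 244 (2.17%) of 11234 autosomal genes; 1 of the 3 E14.5 arrays and none of the E17.5 arrays carried Xist.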
